A study of Rattus norvegicus with 82 samples.

Results

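The expression of 38 genes for glucose uptake, glycolysis, glycogen and the entry of pyruvate into the mitochondrion was described in cardiomyocytes of the rat right ventricle (RV) and left ventricle (LV). The genes were chosen by symbol from a list of named pathway members. All 38 were present among the 17337 genes of the deposited table, and all 38 passed the filter on low counts that left 11954 genes for testing. Cells came from first-generation crosses of Wistar Kyoto and Lewis rats, with males and females in every group. A non-constricting clip had been placed on the pulmonary artery (PAB, loading the RV) or on the aorta (AOB, loading the LV), and sham-operated animals were the controls. Animals were taken at a compensated stage (H) or a failing stage (F). According to the labels, the H groups were 11 weeks old at 7 weeks of treatment. The PAB-F animals were 28 weeks old at 22 weeks of treatment, whereas Sham-F and AOB-F animals were 31 weeks old at 26 weeks, so that PAB-F animals were younger than their controls. The protocol text of the labels gives an age at banding that goes against these ages. There were 41 rats, of each of which the RV and the LV were sequenced, so that 12 groups held 82 libraries. At stage H these were 7 sham rats, 6 with PAB and 6 with AOB, and at stage F 9 sham rats, 6 with PAB and 7 with AOB. The cells were freed by perfusion of the heart with collagenase and separated from other cells by centrifugation.

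As background, glucose enters the cardiomyocyte through GLUT4 (Slc2a4), which insulin and contraction bring to the surface, and through GLUT1 (Slc2a1), which is always there. Hexokinase traps glucose as glucose 6-phosphate, phosphofructokinase commits it to glycolysis, and the lower glycolytic enzymes turn it into pyruvate. Pyruvate becomes lactate by lactate dehydrogenase, or it enters the mitochondrion through a carrier and is oxidised by the pyruvate dehydrogenase complex, which pyruvate dehydrogenase kinases switch off. The adult heart burns mostly fatty acids, and a shift towards glucose is widely described in hypertrophy.

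Total raw counts per library ranged from 6675287 to 19665439 (median 13074485.5). The 9 fixed markers of ventricular cardiomyocytes held a median of 9.54% to 11.1% of counts in the RV groups and 7.61% to 10.5% in the LV groups, and the list of 2 neutrophil markers held at most 0.000286% in any library. Endothelial markers held a median of 0.311% to 0.345% of counts in the LV groups of stage F, against 0.149% to 0.161% in the LV groups of stage H and 0.0813% to 0.144% in the RV groups. Libraries of the LV therefore differed in makeup by stage, and the part of this in the results below was not tested. In bulk RNA, fewer cells of a type and less RNA per cell cannot be told apart. The first principal component, computed on genes of no list, held 47% of the variance. The 22 LV libraries of stage F scored 2.7 to 90.0 on it, and LV Sham-H replicates 4 and 5 and LV PAB-H replicate 2 scored 75.2, 36.6 and 65.9, among them. Every other library scored at most 24.9 (LV AOB-H replicate 6), and the lowest -54.1. The labels give no date or batch for these libraries.

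Levels are given as FPKM, which are scaled for gene length and so can be compared between genes. The glycolytic genes were among the most abundant in these cells. Gapdh, which makes the first high-energy intermediate of lower glycolysis, had a median of 4048 FPKM over the 82 libraries (rank 7 of all genes), Ldhb, the heart form of lactate dehydrogenase, 3386 (rank 10), and Aldoa, the muscle aldolase, 1749 (rank 27). Together the members held a median of 2.69% to 3.28% of all counts per group, from RV PAB-F to LV Sham-F. Within most isozyme pairs, the muscle or heart form dominated. The median ratio of FPKM over the libraries was 21.3 for Slc2a4 over Slc2a1, 41.8 for the muscle phosphofructokinase Pfkm over the platelet form Pfkp, 3.91 for Ldhb over Ldha, and 3.80 for muscle glycogen phosphorylase Pygm over the brain form Pygb. Hk2 and Hk1, the insulin-regulated and the constitutive hexokinase, were at a ratio of 0.88, and enolase was the exception among the muscle forms, with Eno3 over Eno1 at 0.57. The kinase genes of the pyruvate dehydrogenase complex among the members differed widely, with Pdk1 at a median of 248 FPKM and Pdk3 at 0.961. The kinase genes Pdk2 and Pdk4 are not among the members. Tpi1, triosephosphate isomerase, was measured at only 0.598 FPKM, on 8 to 49 counts per library, and its level is uncertain. Gapdh, Aldoa, Eno1, Ldha, Pgk1, Pgam1, Pkm and Tpi1 belong to families with near-identical copies that share reads, so that their absolute levels are less certain than their differences between groups.

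**Figure D1:**
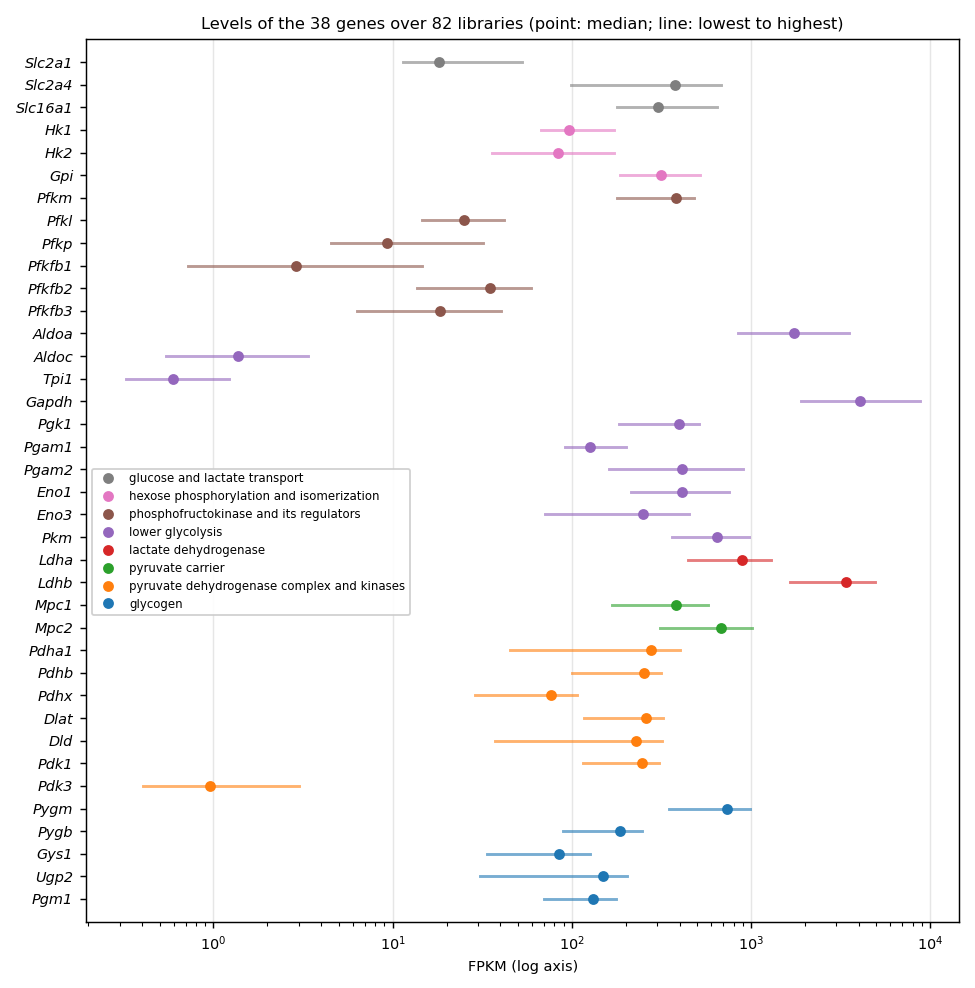
Median (point) and lowest to highest value (line) of each of the 38 genes over 82 libraries, in FPKM on a log axis, coloured by role. Gapdh at 4048 and Ldhb at 3386 FPKM stand at the top, and Tpi1 at 0.598 and Pdk3 at 0.961 at the bottom.

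Of the most abundant member in each role, the levels held within a narrow range of group medians. The glucose transporter Slc2a4 had group medians from 311 FPKM (RV AOB-F) to 439 (LV Sham-F), and Gpi, glucose 6-phosphate isomerase, from 281 (RV PAB-F) to 390 (LV Sham-F). Pfkm ranged from 278 (LV PAB-F) to 454 (RV AOB-H). Gapdh varied more, from 3264 in RV PAB-F to 5893 in LV Sham-F. Ldhb had medians from 3097 (RV PAB-F) to 3806 (LV PAB-H), the pyruvate carrier subunit Mpc2 from 627 (RV PAB-H) to 768 (LV Sham-F), and Pygm from 596 (LV AOB-F) to 797 (LV Sham-H). Pdha1, the catalytic alpha subunit of pyruvate dehydrogenase, departed from this picture, with medians from 65.2 in LV Sham-F to 356 in RV Sham-F.

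Upstream sequence of 250 bases before the start of the gene was at hand, from RefSeq on build GRCr8, for 36 of the 38 members (not for Slc2a4 and Pgk1). The windows of the members were richer in G and C (median 60.2%) than all 33469 windows (51.2%). In both strands, 16 short motifs were searched, after the values of the genes were known. ACGTG, a form of the core of the hypoxia response element that overlaps the E box CACGTG, was found in 16 of 36 members against 16.6% of all windows. A member was counted if any of its windows matched, whereas the background is per window. GCGTG was in 20 members (25.9% of windows), CACGTG in 4 (5.59%), TGCGCA in 7 (6.14%), the palindromic site of NRF1 in 1 (0.762%), CACCC in 24 (49.2%), GGGCGG in 25 (30.5%), CCCCGCCCC in 6 (9%), CCAAT in 18 (34%), CANNTG in 24 (65.5%) and TATAAA in 4 (12.9%). AAGGTCA, a core site of nuclear receptors of the ERR kind, was in 1 member (3.99%), and TCAAGGTCA (0.388%), CTAAAAATA (0.442%), ACTTCCGG (3.1%) and CATTCCT (4.35%) were in none of them. A match is a description of letters and no evidence of binding. The windows of Pdk3 and Eno3, called in the failing RV whichever library was left out, of Slc2a1, called in the failing LV, and of Pdha1, which differed most between ventricles, are printed 5′ to 3′ in lower case with ACGTG or its reverse complement in capitals. Pdk3 and Slc2a1 each held 1 match, 54 and 51 bases before the start, while Eno3 and Pdha1 held 0. The windows of Pfkp, also called in the failing LV, and of Dld were looked at too. They are not printed and held 0 matches. GCGTG was found for Pdk3, Slc2a1, Pdha1 and Pfkp, and not for Eno3 or Dld.
Pdk3, GRCr8 chrX:62547372-62547621, - strand: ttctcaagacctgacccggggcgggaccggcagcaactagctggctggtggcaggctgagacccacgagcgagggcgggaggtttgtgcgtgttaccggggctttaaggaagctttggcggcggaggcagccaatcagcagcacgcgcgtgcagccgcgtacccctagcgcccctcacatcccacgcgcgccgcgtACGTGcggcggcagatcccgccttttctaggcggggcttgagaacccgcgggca
Slc2a1, GRCr8 chr5:138002272-138002521, + strand: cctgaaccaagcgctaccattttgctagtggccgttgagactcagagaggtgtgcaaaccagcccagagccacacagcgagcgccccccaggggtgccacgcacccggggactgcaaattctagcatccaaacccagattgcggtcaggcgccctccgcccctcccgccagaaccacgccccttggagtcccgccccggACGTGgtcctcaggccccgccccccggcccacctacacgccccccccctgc
Eno3, GRCr8 chr10:55868936-55869185, + strand: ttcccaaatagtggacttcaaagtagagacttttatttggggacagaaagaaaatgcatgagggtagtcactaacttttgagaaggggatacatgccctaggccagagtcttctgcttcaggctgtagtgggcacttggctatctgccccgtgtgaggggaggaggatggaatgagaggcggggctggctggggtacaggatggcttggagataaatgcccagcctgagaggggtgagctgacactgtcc
Pdha1, GRCr8 chrX:38508908-38509157, + strand: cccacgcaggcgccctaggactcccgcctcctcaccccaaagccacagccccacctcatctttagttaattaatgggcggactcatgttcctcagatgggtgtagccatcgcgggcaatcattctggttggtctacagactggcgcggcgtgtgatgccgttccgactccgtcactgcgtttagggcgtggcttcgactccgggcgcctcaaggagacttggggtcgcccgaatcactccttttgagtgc

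In the failing RV after PAB, the kinase gene Pdk3 and the lactate and pyruvate transporter gene Slc16a1 (MCT1) rose, while the muscle enolase gene Eno3, Pfkm, the glycogen synthase gene Gys1 and Pygm fell. In edgeR's quasi-likelihood test with Benjamini-Hochberg adjustment over all genes (called at an adjusted p under 0.05), 2 members were higher and 4 lower in RV PAB-F than in RV Sham-F. The background was 7.66% of genes tested called higher and 3.42% called lower. The median log2 fold change over the 38 members was -0.10, against 0.02 over all genes tested. Below 0 were 27 members, whereas 52.1% of genes tested were above 0. The cut-offs of the study (log2 change over 1, unadjusted p at most 0.01, mean count over 50) were applied to the edgeR values. They called 1 member, Pdk3, against 1.9% of genes. The study itself used DESeq2 with shrunken fold changes, so its own list can differ.

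Pdk3 encodes a kinase that inactivates pyruvate dehydrogenase. Its levels in RV PAB-F were 0.719 FPKM at the lowest, 1.44 at the median and 3.01 at the highest, against 0.427, 0.739 and 0.975 in RV Sham-F. The value of 5 of 6 PAB-F libraries lay above every Sham-F library, and the fold change on the log2 scale was 1.25 ± 0.26 (SE; edgeR adjusted p = 0.000575), a fold of 2.38. The counts behind Pdk3 were few, with 21 to 74 in RV PAB-F and 11 to 29 in RV Sham-F, and its level remained far below that of Pdk1, which was 258 FPKM at the median of RV PAB-F. Pdk1 was not called in this comparison.

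Eno3, whose product makes phosphoenolpyruvate in muscle, ranged from 107 FPKM to a median of 173 and a highest value of 311 in RV PAB-F, and from 275 to a median of 320 and 439 in RV Sham-F. In 5 of 6 PAB-F libraries Eno3 was below every Sham-F library (log2 -0.77 ± 0.19, edgeR adjusted p = 0.00355). Its ubiquitous partner Eno1 had medians of 388 and 397 FPKM and was not called, and the ratio of Eno3 to Eno1 had a median of 0.48 in RV PAB-F against 0.82 in RV Sham-F. Both Pdk3 and Eno3 stayed called when each of the 15 libraries of the comparison was left out in turn (highest adjusted p 0.018 and 0.0431).

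Slc16a1 in RV PAB-F was 375 FPKM at the lowest, 486 at the median and 644 at the highest, against 298, 383 and 427 in RV Sham-F (log2 0.48 ± 0.15, edgeR adjusted p = 0.0275). Pfkm, which catalyses the committed step, had 182, 307 and 432 FPKM against 343, 413 and 468 (log2 -0.43 ± 0.13, edgeR adjusted p = 0.0249). The groups overlapped in both genes. In glycogen metabolism, Pygm, which breaks glycogen down, had 351, 604 and 755 FPKM against 624.6, 768 and 866 (log2 -0.38 ± 0.12, edgeR adjusted p = 0.024), and Gys1, which builds it, 49.4, 68.1 and 96.8 against 73.7, 89.9 and 105 (log2 -0.38 ± 0.13, edgeR adjusted p = 0.038). Both were below every Sham-F library in 5 of 6 libraries, and the other 3 of the 5 glycogen members were not called. These 4 smaller changes were less stable. When each of the 15 libraries was left out in turn, the call was lost in 9 fits for Gys1, 4 for Slc16a1, 2 for Pfkm and 2 for Pygm, and the number of called members fell to 2 without RV PAB-F replicate 1 or without replicate 2. How many genes in all these fits called is not given here.

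**Figure D2:**
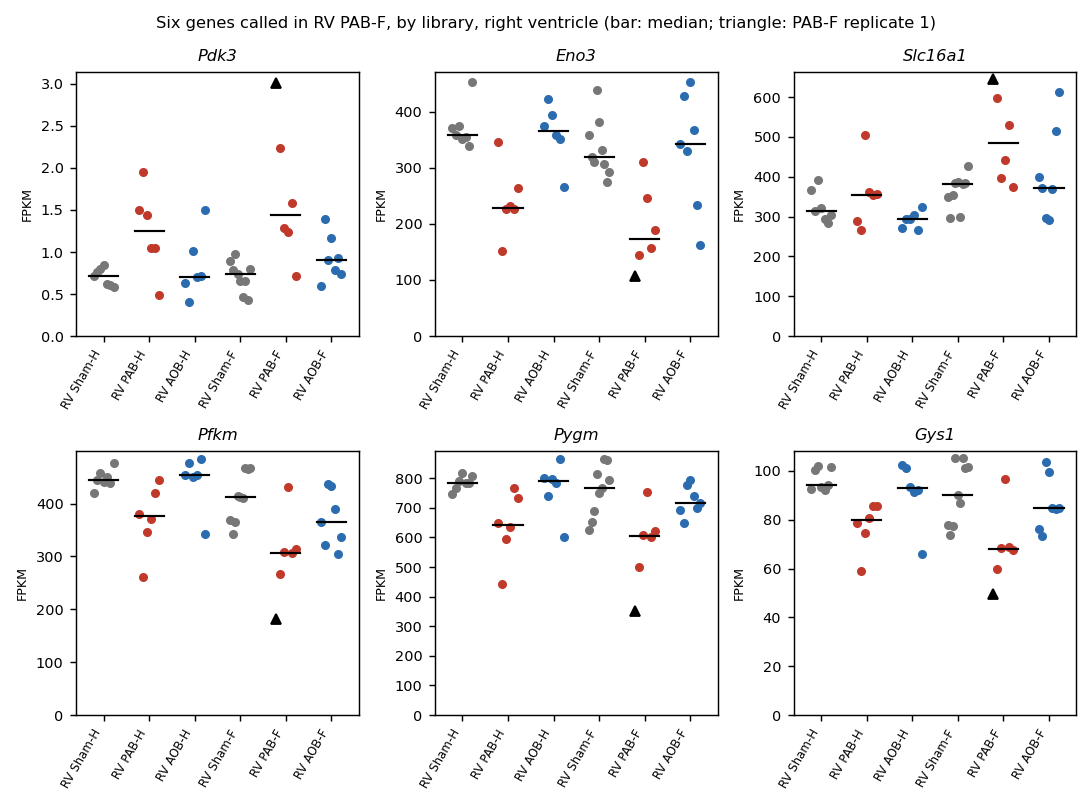
FPKM of Pdk3, Eno3, Slc16a1, Pfkm, Pygm and Gys1 in each RV library (axes from 0) by group, with Sham in grey, PAB in red and AOB in blue, the median as a bar and PAB-F replicate 1 as a triangle. Replicate 1 is the highest library for Pdk3 (3.01) and Slc16a1 (644) and the lowest for Eno3 (107), Pfkm (182), Pygm (351) and Gys1 (49.4).

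RV PAB-F replicate 1 had the most extreme value of its group in all 6 genes. In this library the fibroblast markers held 0.189% of counts and the macrophage markers 0.0152%, the highest of the group. The group as a whole also stood above RV Sham-F, with medians of 0.0482% against 0.0226% for fibroblast markers, 0.136% against 0.0851% for endothelial markers and 0.00426% against 0.00269% for macrophage markers. Their part in the RV PAB-F results was not tested. Among the members that missed the threshold, Pfkfb3, an activator of phosphofructokinase, had 12.3, 16 and 25.7 FPKM against 6.34, 11.2 and 13.9 (edgeR adjusted p = 0.0604), and Slc2a1 15.9, 18.7 and 31.1 against 13, 16 and 18.1 (edgeR adjusted p = 0.0687). Pdha1 and Dld, 2 subunits of the pyruvate dehydrogenase complex, did not overlap between the groups at all, with 196 to 310 against 327 to 403 FPKM and 216 to 255 against 257 to 315, yet they were not called in the fit of all libraries (Pdha1 adjusted p = 0.292). In a fit of the 15 libraries of this comparison alone, 11 members were called, the 6 above and Dld, Gapdh, Pdha1, Pfkfb3 and Slc2a1. That fit called 2726 genes in all instead of 1325. Non-overlap was seen in 2.26% of genes with a count.

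At the compensated stage none of the members was called when RV PAB-H was set against its Sham-H group, where 4.5% of genes were called. At an unadjusted p under 0.05 in edgeR there were 6 members, against 20.6% of genes tested. DESeq2 called 1 member, Eno3, and 651 genes in all. Pdk3 had 0.494, 1.25 and 1.96 FPKM against 0.579, 0.715 and 0.841 (log2 0.85 ± 0.28, edgeR adjusted p = 0.0572), and Eno3 152, 229 and 347 against 338, 358 and 453 (log2 -0.61 ± 0.19, edgeR adjusted p = 0.0528). Gapdh, Pygb and Gys1 did not overlap between the groups and were lower in every PAB-H library, as 2.54% of genes with a count did not overlap. The fit of these 13 libraries alone called Eno3, Gapdh, Gys1, Pdk3 and Pygb, and 1642 genes in all instead of 538. With 1 library left out, 1 member was called without RV PAB-H replicate 1 or 5 and 2 without replicate 6, and the totals over all genes are not given here. The test of the difference between the stages, RV PAB-F response minus RV PAB-H response, called 0% of genes and 0 members (0 members also at an unadjusted p under 0.05 in edgeR and by DESeq2). At that unadjusted p, 1.48% of genes passed. For Pdk3 the responses were 1.25 and 0.85, and for Eno3 -0.77 and -0.61.

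In the failing LV after AOB, members were called against LV Sham-F in the fit of all 82 libraries. Higher were 3 (Pfkp, Slc2a1 and Hk1), and 4 were lower (Pfkfb1, Eno3, Slc2a4 and Aldoa). Of the genes tested, 8.54% were called higher and 4.35% lower. The median log2 fold change of the members was -0.13, against 0.04 over all genes. The criteria of the study, applied to the edgeR values, called 1 member, Pfkp, against 1.21% of genes. Without AOB-F animals 6 and 7, 1 member, Pfkfb1, was called, in a fit with fewer libraries that called 344 genes in all instead of 1541. The fit of all 82 libraries takes the spread of a gene from the 12 groups together. In a fit of the libraries of this comparison alone, 0 members were called, and 15 genes in all.

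Pfkp, the platelet form of phosphofructokinase, had 5.86 FPKM at the lowest, 9.85 at the median and 31.9 at the highest in LV AOB-F, against 4.55, 6.7 and 7.61 in LV Sham-F (log2 1.07 ± 0.19, edgeR adjusted p = 0.000151). Animals 6 and 7 had 22.5 and 31.9, and the other 5 animals had 5.86 to 10.2. Without both animals the log2 difference was 0.35 and the adjusted p 0.158. Slc2a1 had 16.1, 24.1 and 52.9 FPKM against 17.2, 19.6 and 28.1 (log2 0.54 ± 0.14, edgeR adjusted p = 0.00633). Animals 6 and 7 had 47.1 and 52.9 and the other 5 at most 27.6, and without both the log2 difference was 0.10. Slc2a4 was opposite to Slc2a1, with 98.5, 358 and 561 against 342, 439 and 683 (log2 -0.49 ± 0.17, edgeR adjusted p = 0.0437). Here animals 6 and 7 had 133 and 98.5 FPKM, and the other animals 341 to 561. Without both, the log2 difference of Slc2a4 was -0.15 (edgeR adjusted p = 0.518). Its call was lost in 10 of the 16 fits that left out 1 library. The ratio of Slc2a4 to Slc2a1 fell to 1.86 in the lowest LV AOB-F library, against 15.3 in the lowest LV Sham-F library.

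Hk1, the constitutive hexokinase, had 84.9, 107 and 152 FPKM in LV AOB-F against 67.6, 78.7 and 122 in LV Sham-F (log2 0.42 ± 0.12, edgeR adjusted p = 0.0149). Eno3 had 70.7, 162 and 226 FPKM against 166, 222 and 258 (log2 -0.50 ± 0.18, edgeR adjusted p = 0.0488), a call that was lost in 11 of the 16 fits that left out 1 library. Aldoa had 1722, 1947 and 2811 FPKM against 2226, 2604 and 3515 (log2 -0.38 ± 0.12, edgeR adjusted p = 0.0301). The groups overlapped for these 3 genes. Without animals 6 and 7, the log2 difference was 0.28 for Hk1 (adjusted p = 0.176), -0.24 for Eno3 (adjusted p = 0.417) and -0.32 for Aldoa (adjusted p = 0.177). Aldoa thus kept most of its difference without its call, and without the libraries that stand apart it was at -0.47 (adjusted p = 0.00189).

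Pfkfb1, the liver and muscle form of the enzyme that sets fructose 2,6-bisphosphate, fell with and without those 2 animals. It had 1.05, 2 and 3.55 FPKM in LV AOB-F against 3.5, 3.82 and 5.99 in LV Sham-F, and 6 of 7 AOB-F libraries were below every Sham-F library (log2 -0.95 ± 0.26, edgeR adjusted p = 0.0106). Without animals 6 and 7 the log2 difference was -1.09 (adjusted p = 0.0311), and the call held when each of the 16 libraries was left out. It was lost in the fit of those 16 libraries alone. The counts of Pfkfb1 were few, at 17 to 346 over the 82 libraries (median 76.5). In LV AOB-H, Pfkfb1 was at a median of 1.4 FPKM, and in LV Sham-H at 1.07.

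**Figure D3:**
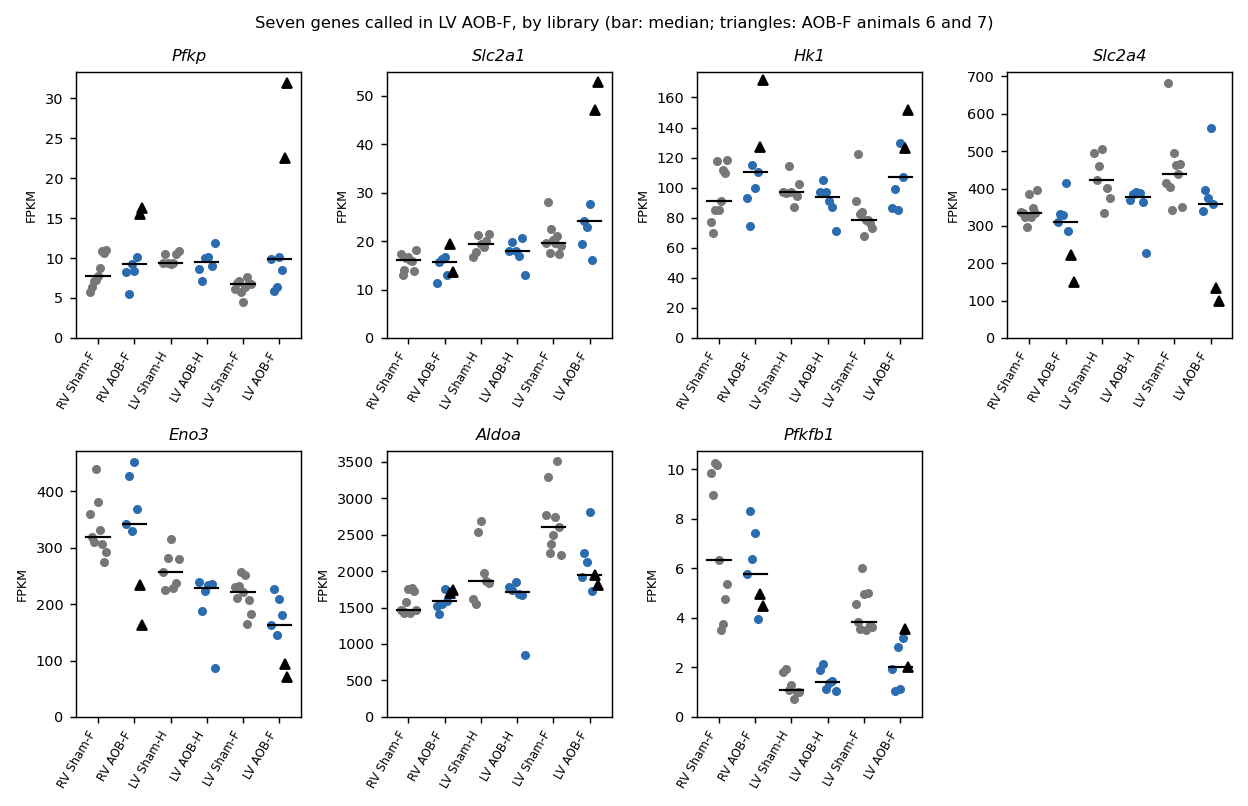
FPKM of the 7 genes called in LV AOB-F in each library of 6 groups (axes from 0), with Sham in grey, AOB in blue, the median as a bar and AOB-F animals 6 and 7 as triangles. Both animals stand above the rest of LV AOB-F for Pfkp (22.5 and 31.9) and Slc2a1 (47.1 and 52.9) and below it for Slc2a4 (133 and 98.5) and Eno3 (93.1 and 70.7).

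In the RV of animals 6 and 7, Pfkp was 15.5 and 16.2 FPKM against 5.44 to 10.1 in the other 5 RV AOB-F libraries, Slc2a4 222 and 149 against 287 to 415, and Eno3 234 and 162 against 329 to 453. For Slc2a1 the RV values, 19.4 and 13.5, reached into the range of the others (11.4 to 16.7). Both animals are females. In the LV, the third female of the group had 8.51 FPKM of Pfkp and the males 5.86 to 10.2, and sex was not tested on its own. In the LV libraries of animals 6 and 7 the cardiomyocyte markers held 5.3% and 5.65% of counts, the lowest of the group, where the median was 7.61%. The macrophage markers held 0.0179% and 0.0198% and the neutrophil markers 0.000264% and 0.000286%, against group medians of 0.0162% and 8.01e-06%. Replicate 2 held more macrophage markers than either (0.0209%). The whole group also stood above LV Sham-F, with medians of 0.0162% against 0.00639% for macrophage markers and 0.0933% against 0.0582% for fibroblast markers. The part of these in the LV AOB-F results was not tested.

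Also in LV AOB-F, the fit of the 16 libraries of this comparison alone called 0 members and 15 genes in all. Leaving out the 8 libraries that stood apart from their groups gave 12 called members and 3340 genes in all, instead of 1541. That fit lost Eno3, Hk1 and Slc2a1 and added Eno1, Gapdh, Gpi, Gys1, Mpc2, Pdha1, Pygm and Ugp2. The count was 4 without LV Sham-F replicate 2 or LV AOB-F replicate 1, 12 without LV AOB-F replicate 4, 3 without replicate 6 and 2 without replicate 7. The number of all genes called in these fits is not given here. A shift over all genes therefore cannot be told from a shift of the members.

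In the compensated LV, 0 members were called in edgeR for LV AOB-H against LV Sham-H, where 0.0167% of genes were called. At an unadjusted p under 0.05 there were 8 members, and DESeq2 called 1, Eno1. Members furthest from 0 were Gapdh, with 1903, 3670 and 4149 FPKM against 3658, 4408 and 7813 (log2 -0.52 ± 0.16, edgeR adjusted p = 0.102), and Eno1, with 215, 379 and 418 against 400, 433 and 755 (log2 -0.47 ± 0.12, edgeR adjusted p = 0.0982). Of the members, 29 were below 0, with a median of -0.14, whereas 51.7% of genes tested were above 0. LV AOB-H replicate 6 was low across the members, and without it the median was -0.04.

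In the ventricle that the clip did not load, no member was called in edgeR or DESeq2. This was so for LV PAB-H (0% of genes called), LV PAB-F (0%), RV AOB-H (0%) and RV AOB-F (0.0669%). At an unadjusted p under 0.05 there were 0, 0, 0 and 2 members, against 2.55%, 3.80%, 1.43% and 4.32% of genes tested. The member furthest from 0 was Aldoc, the brain aldolase, in RV AOB-F, with 1.24, 1.67 and 2.32 FPKM against 0.543, 0.942 and 1.51 (log2 0.77 ± 0.22, edgeR adjusted p = 0.354). The test of the PAB-F response in the RV against that in the LV called 0 members and 0.351% of genes. An unadjusted p under 0.05 was reached by 3 members and by 12.9% of genes. For Pdk3 the difference was 1.02 (95% interval 0.29 to 1.75, edgeR adjusted p = 0.231) and for Eno3 -0.84 (-1.36 to -0.32, edgeR adjusted p = 0.156). The AOB-F response of the LV against that of the RV called 0 members and 0% of genes. Here 6 members and 9.71% of genes had an unadjusted p under 0.05. Pfkp differed by 0.74 (0.20 to 1.29, edgeR adjusted p = 0.466). DESeq2 called 0 members in both. An effect in the loaded ventricle was therefore not shown to differ from that in the other ventricle for any member by these 2 tests. Other settings called 1 member in the PAB-F difference. This was Eno3 with the replicate block, which pairs the ventricles of an animal, and also without AOB-F animals 6 and 7, and Pdk3 by the criteria of the study.

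The largest differences of the whole set lay between the ventricles of sham animals at the F stage. Pyruvate dehydrogenase genes were far higher in the RV, and of the 38 members 15 were higher and 12 lower in RV Sham-F than in LV Sham-F, or 71.1% of the members. This was close to the background, since 35.6% of genes were called higher and 38.6% lower. Within the pyruvate dehydrogenase group 6 of 7 were higher and 1, Pdk3, lower, while of the 10 lower glycolytic genes 2 were higher and 5 lower.

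Pdha1 had 327 FPKM at the lowest, 356 at the median and 403 at the highest in RV Sham-F, against 52, 65.2 and 124 in LV Sham-F (log2 2.26 ± 0.23, edgeR adjusted p = 8.4e-14). Dld, the dehydrogenase that the complex shares with others, had 257, 279 and 315 against 49.9, 69.4 and 117 (log2 1.92 ± 0.23, edgeR adjusted p = 1.02e-11). The beta subunit Pdhb had 271, 281 and 315 against 113, 128 and 199 (log2 1.08 ± 0.14), and the binding protein Pdhx 79.1, 80.2 and 86.5 against 29, 37.4 and 43.3 (log2 1.16 ± 0.15). All 9 RV libraries were above all 9 LV libraries in these 4 genes. Such non-overlap was seen in 13 of the 38 members and in 32.1% of genes with a count, so it is not particular to the members. Outside the complex, Ugp2, which makes UDP-glucose for glycogen, had 146, 161 and 186 against 38.6, 49.1 and 72.9 (log2 1.69 ± 0.20). Pfkfb3 went the other way without overlap, with 6.34, 11.2 and 13.9 in the RV against 16.1, 26.2 and 40.5 in the LV (log2 -1.36 ± 0.23). Among the remaining called members, Aldoc (-1.02), Aldoa (-0.78), Pgam2 (-0.70) and Gapdh (-0.61) were lower in the RV, and Dlat (0.80), Pgk1 (0.74), Pfkfb1 (0.72) and Eno3 (0.63) higher.

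**Figure D4:**
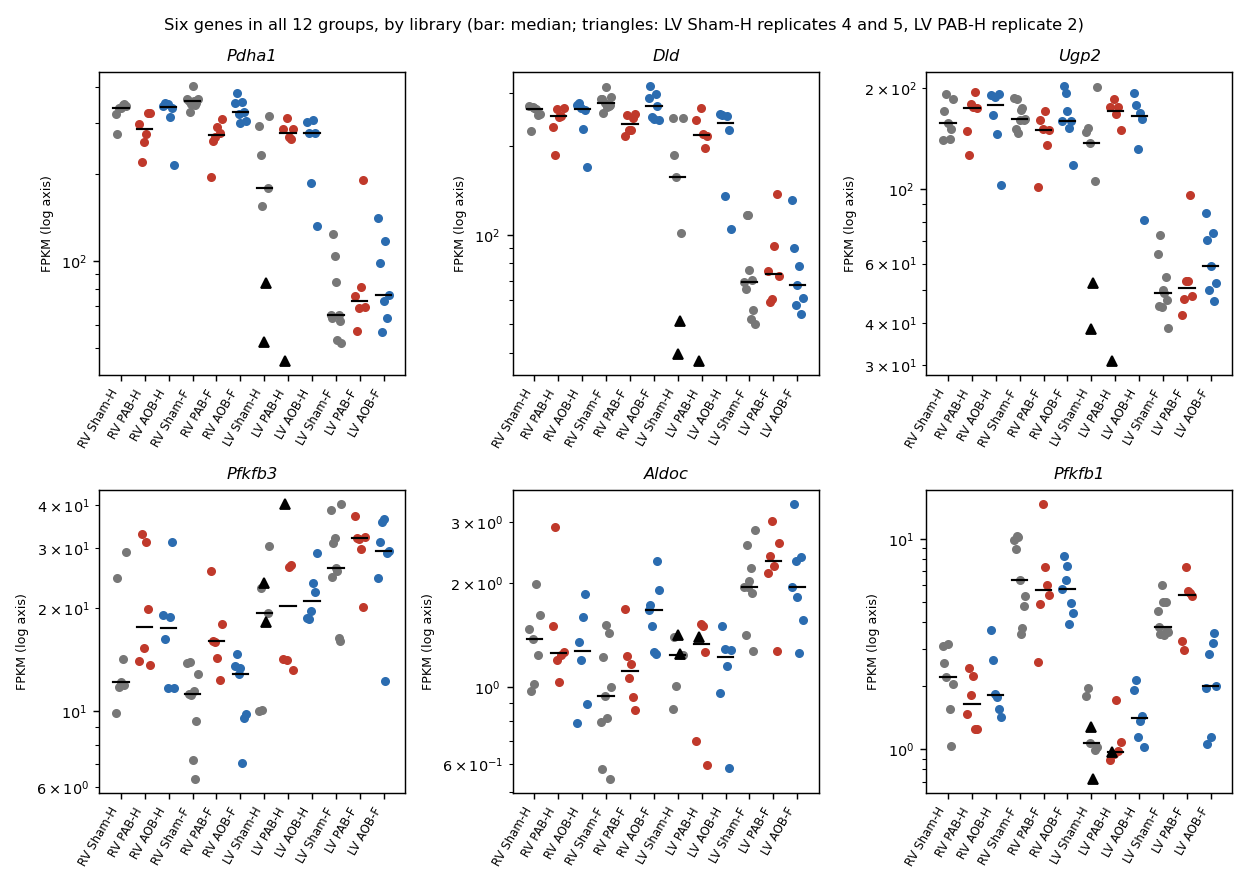
FPKM of Pdha1, Dld, Ugp2, Pfkfb3, Aldoc and Pfkfb1 in each of the 82 libraries by group (log axes), with Sham in grey, PAB in red, AOB in blue, the median as a bar and LV Sham-H replicates 4 and 5 and LV PAB-H replicate 2 as triangles. All RV libraries hold 196 to 403 FPKM of Pdha1, those of the LV at stage F 52 to 191, and the 3 marked H libraries 45.1 to 84.4.

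The low values of Pdha1, Dld and Ugp2 were shared by all LV groups of stage F. Over the 22 LV libraries of stage F, Pdha1 ran from 52 to 191 FPKM, whereas the 41 RV libraries of any stage ran from 196 to 403 without overlap. Ugp2 ran from 38.6 to 95.8 in those LV libraries and from 101 to 203 in the RV. LV PAB-F and LV AOB-F had medians of 72.6 and 76.1 for Pdha1, close to that of LV Sham-F (65.2). In stage H the LV was mixed. Of the 7 LV Sham-H libraries, replicates 4 and 5 had 52.4 and 84.4 FPKM of Pdha1 and the other 5 had 155 to 317. Replicates 4 and 5 of LV Sham-H also scored among the LV libraries of stage F on the first principal component. Their endothelial share of counts was 0.295% and 0.219%, against a group median of 0.161%. Also at stage H, that share was 0.529% in LV AOB-H replicate 6 and 0.258% in RV AOB-H replicate 6. No correlation was computed, and the part of that share in the result was not tested.

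In sham animals of the H stage, 4 members were higher in the RV (Pfkfb1, Pdha1, Dld and Eno3) and 1 lower (Eno1), against 9.62% and 11.4% of genes. Pdha1 had 276, 338 and 350 FPKM in the RV against 52.4, 178 and 317 in the LV (log2 0.81 ± 0.25, edgeR adjusted p = 0.0165), and Dld 224, 265 and 272 against 39.7, 156 and 248 (log2 0.80 ± 0.25, edgeR adjusted p = 0.0179). In both genes 6 of 7 RV libraries were above every LV library. Pfkfb1 had 1.03, 2.2 and 3.15 against 0.718, 1.07 and 1.94 (log2 0.82 ± 0.29), and Eno1 382, 393 and 418 against 400, 433 and 755 (log2 -0.34 ± 0.12). Eno3 was the member without overlap, with 338, 358 and 453 against 225, 257 and 316 (log2 0.50 ± 0.19, edgeR adjusted p = 0.0432). Non-overlap was seen in 3.55% of genes with a count. Without LV Sham-H replicates 4 and 5 and LV PAB-H replicate 2, 0 members were called, and 240 genes in all instead of 2510. Eno3 still differed by 0.53 on the log2 scale (adjusted p = 0.167), while Pdha1 went to 0.48. With 1 library left out, 0 members were called without LV Sham-H replicate 4, 1 without LV Sham-H replicate 5, and 3 without LV Sham-H replicate 3 or 6 or RV Sham-H replicate 2 or 7. Totals over all genes in those fits are not given here. The ventricles come from the same animals, and with the animal as a replicate block 9 members were called, adding Gpi, Pkm, Pygb and Ugp2. That fit called 3887 genes in all instead of 2510.

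Between the stages, Pfkfb1 was the member that changed in both ventricles of sham animals. In the RV it was the only one called, as 0.0502% of genes were called higher, with 3.53, 6.34 and 10.3 FPKM in Sham-F against 1.03, 2.2 and 3.15 in Sham-H (log2 1.65 ± 0.26, edgeR adjusted p = 0.000148). In the LV it had 3.5, 3.82 and 5.99 against 0.718, 1.07 and 1.94 (log2 1.75 ± 0.27, edgeR adjusted p = 7.24e-07). The groups did not overlap in either ventricle (0.283% of genes with a count in the RV), and the rise in the RV stayed called in every fit that left out 1 library. Stage, age and time after surgery cannot be told apart here.

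The LV Sham-F libraries differed from LV Sham-H in 19 members, or 50%, with 5 higher and 14 lower, where 27.8% of genes were called higher and 29.6% lower. Subunits of pyruvate dehydrogenase were again lower, with Pdha1 at a log2 difference of -1.35 ± 0.23, Dld -1.0 ± 0.23, Pdhx -0.99 ± 0.16, Pdhb -0.82 ± 0.14 and Dlat -0.66 ± 0.14. Ugp2 fell by 1.22 on the log2 scale. The higher members beside Pfkfb1 were Aldoc (0.72), Pgam2 (0.54), Aldoa (0.41) and Gapdh (0.34). Of the 10 lower glycolytic genes these 4 were higher, Pgk1 was lower (-0.54 ± 0.11) and 5 were not called. The groups overlapped for Pdha1, Dld and Ugp2, where LV Sham-H replicates 4 and 5 were in the range of LV Sham-F. Pfkp and Pfkfb1 were the 2 members without overlap, and Pfkp was at 4.55 to 7.61 FPKM in Sham-F against 9.22 to 10.9 in Sham-H. Of genes with a count, 1.39% did not overlap.

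The test of the RV minus LV difference at stage F against that at stage H called 8 members higher (Pdha1, Ugp2, Dld, Pdhx, Pdhb, Dlat, Pgk1 and Ldha) and 4 lower (Aldoc, Pfkfb3, Aldoa and Pfkl), against 23% and 18.6% of genes. The difference was 1.45 for Pdha1, 1.25 for Ugp2, 1.12 for Dld, 1.07 for Pdhx, -1.22 for Aldoc and -1.11 for Pfkfb3 on the log2 scale. These contrasts share their LV libraries with the comparisons above, and they are no separate evidence.

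**Figure D5:**
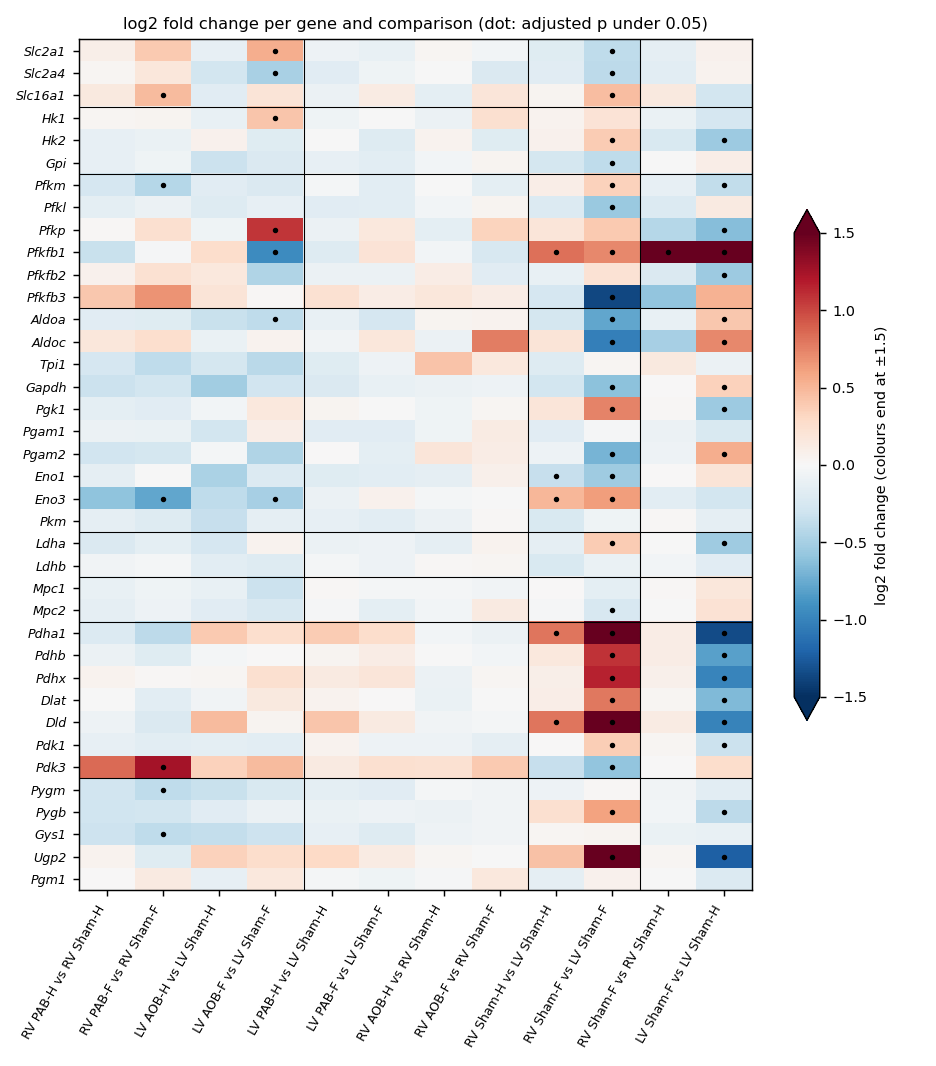
log2 fold change of each member (rows, by role) in 12 comparisons (columns), with red for higher and blue for lower in the first group and colours ending at 1.5 in either direction. Dots mark an adjusted p under 0.05, of which 27 stand in RV Sham-F against LV Sham-F, 6 stand in the RV PAB-F column and 7 in that of LV AOB-F.

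Of 86 other genes of the pathway, 80 were in the table and 75 were tested. Over all genes, the share called in either direction was 11.1% in RV PAB-F, 4.5% in RV PAB-H, 12.9% in LV AOB-F, 21% between the ventricles in Sham-H, 74.3% in Sham-F and 57.4% between the stages in the LV, and the counts of these genes are to be read against it. In RV PAB-F, 8 of 75 were called, 5 higher and 3 lower, led in fold change by Pfkfb4, another activator of phosphofructokinase (1.33 ± 0.29, edgeR adjusted p = 0.00142), the transporter Slc2a10 (1.30 ± 0.44) and the liver glycogen phosphorylase Pygl (0.84 ± 0.28). Levels of Slc2a10 (mean 0.309 against 0.126 FPKM) and Pygl (0.943 against 0.528) were low. Ppp1r3d, of glycogen metabolism, had the lowest adjusted p of the 8 (-0.76 ± 0.11, edgeR adjusted p = 1.54e-06), at 28.5 against 49.2 FPKM. In RV PAB-H, 2 were called, Gfpt2 of hexosamine synthesis (1.5 ± 0.36) and Ppp1r3d, which brings a phosphatase to glycogen (-0.57 ± 0.12). In LV AOB-F, 14 of 75 were called, 8 higher and 6 lower, led by Hk3, a hexokinase of blood cells (3.03 ± 0.69, with 2 of 7 libraries above every LV Sham-F library), Phkg1, the catalytic subunit of muscle phosphorylase kinase (-1.06 ± 0.26), and Myc (0.87 ± 0.27). In RV Sham-H against LV Sham-H, 10 of 75 were called, among them Pygl (-1.02) and Phkg1 (0.73). In RV Sham-F against LV Sham-F, 58 of 75 were called, among them Slc2a10 (-2.57) and Ppp1r3a (1.97), and 42 of 75 in LV Sham-F against LV Sham-H, led by Hk3 (2.6), Slc2a10 (1.27) and Hif1a (-1.14). The remaining banding comparisons called 0 of the 75.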

How the data were processed

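Total RNA of isolated rat cardiomyocytes was sequenced by the authors after removal of ribosomal RNA. Reads were trimmed with Trim Galore and aligned with STAR to the rat genome Rnor6.0, and the authors counted reads per gene with featureCounts, which gave the deposited raw counts. Multiple overlaps were disabled in the counting, and a strand setting was not given in the sources used here. The deposited normalized counts, a signal per gene, equal the raw counts over 1 size factor per library (0.639 to 1.571), made with DESeq2 1.28.1. The deposited FPKM, made by the authors, further divide by gene length. Levels in the text are FPKM, and every test used the raw counts.

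The 38 members and the lists were chosen with earlier results of these data known. edgeR 4.0.16 (R 4.3.3) was fitted once to all 82 libraries with 12 group means, TMM factors and filterByExpr (11954 genes), and quasi-likelihood F tests were two-sided with Benjamini-Hochberg adjustment over all genes (threshold 0.05). Replicates are separate animals. Values per group were given for up to 6 called members of largest fold change per comparison, and for the most abundant member of each role. Up to 3 called genes of the other pathway genes were named per comparison (some are not reported here), and remaining members by counts and ranges. Alternatives were DESeq2 1.42.0, its size factors, no filter, the criteria of the study, sex as a covariate, the libraries of a contrast alone, a replicate block, leaving out each library, and 3 sets of libraries left out after the data were seen. The criteria of the study were applied to edgeR values, without the shrinkage of fold changes that the study used. The fit was tested on simulated data. RV and LV libraries of 1 animal deviated together (median correlation 0.186 to 0.297 per group, against -0.0686 to -0.0142 for other numbers). No 2 libraries were copies (smallest chi-square per gene 4.04). The table holds no reads, so counting settings could not be varied. Motifs and upstream sequence came from RefSeq GRCr8, matched by symbol.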

Additional observations from a re-analysis of the deposited data

Results flagged for a closer look

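Of 62 combinations of a named gene (or the median of the members) and a group, 10 had a highest or lowest library whose gap to the nearest was large against the whole range of the group by Dixon's 95% limit, where chance flags about 1 in 20. LV AOB-H replicate 6 and RV AOB-H replicate 6, from 1 animal, were low over the members, with a median deviation from the mean of all libraries of -0.82 and -0.26 on the log2 CPM scale, where the other libraries of their groups lay at 0.00 to 0.11 and 0.09 to 0.12. Their endothelial markers held 0.529% and 0.258% of counts. LV Sham-F replicate 2 was the highest of its group for Slc2a4 (683 FPKM), Slc2a1 (28.1) and Hk1 (122), where the others reached 494, 22.4 and 90.9. LV Sham-F replicate 8 was highest for Pdhb (199 FPKM). RV Sham-H replicate 2 was lowest for Dld (224 FPKM) and Pdha1 (276), RV Sham-H replicate 7 highest for Eno3 (453), and RV Sham-F replicate 5 highest for Pdha1 (403).

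The RV minus LV difference of sham animals itself differed between the stages, by the edgeR test of that difference, in 12 members. On the log2 scale, F minus H, it was 1.45 for Pdha1, 1.25 for Ugp2, 1.12 for Dld, 1.07 for Pdhx, 0.93 for Pdhb, 0.69 for Dlat, 0.56 for Pgk1 and 0.52 for Ldha, and -1.22 for Aldoc, -1.11 for Pfkfb3, -0.52 for Aldoa and -0.34 for Pfkl.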

How the results depend on the processing

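No called member changed direction under any alternative. The number of all genes called moved as well, and the counts are to be read against it. In RV PAB-H it was 538 in the main fit, 1642 in its own libraries and 1483 without the libraries that stand apart. In RV PAB-F it was 1325, 2726 and 2684, and in LV AOB-F 1541, 15 and 3340. For RV against LV Sham-H it was 2510, 3887 with the replicate block and 240 without the 3 LV libraries of stage H. For the AOB-F difference it was 0, and 931 without the libraries apart. Counts of called members are given where they moved by more than 1.5 times, and the cause was not tested. For RV PAB-H (0 called) they were 1 with sex as a covariate, 1 with the replicate block, 1 with DESeq2, 5 in the fit of its own libraries, 4 without the libraries that stand apart, 1 without AOB-F animals 6 and 7 and 2 without 3 LV libraries of stage H. For RV PAB-F (6) they were 1 by the criteria of the study, 11 in its own libraries and 10 without the libraries apart, and for LV AOB-F (7) they were 1, 0 and 12, and 1 without AOB-F animals 6 and 7. LV AOB-H (0) had 1 with DESeq2. RV against LV Sham-H (5) had 3 with no filter, 0 by the criteria of the study, 1 in its own libraries, 9 with the replicate block and 0 without the 3 LV libraries. The criteria of the study gave 6 for RV against LV Sham-F (27), 4 for LV Sham-F against LV Sham-H (19), 5 for the Sham difference between stages (12) and 1 (Pdk3) for the PAB-F difference between ventricles (0), which was also 1 (Eno3) with the replicate block and without AOB-F animals 6 and 7. The AOB-F difference between ventricles (0) had 4 without the libraries apart. With 1 library left out, counts ran from 0 to 2 for RV PAB-H, 2 to 9 for RV PAB-F, 0 to 1 for LV AOB-H, 2 to 12 for LV AOB-F, 0 to 7 for RV against LV Sham-H, 24 to 29 for Sham-F, 17 to 23 for LV Sham-F against LV Sham-H, 11 to 17 for the Sham difference between stages and 0 to 1 for the PAB-F difference, and stayed at 1 for RV Sham-F against RV Sham-H and at 0 elsewhere. These counts stand without the number of all genes called in the same fits. Replicate numbers mark 1 animal across ventricles, but across treatments they are only numbers (median correlation per comparison -0.0809 to 0.160), and with the replicate block the paired fit called 28 members in RV against LV Sham-F, and Gys1 lost its call in RV PAB-F (adjusted p = 0.0569). Genes of few counts, such as Pdk3, Aldoc, Tpi1 and Pfkfb1, are limited by depth.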

Other observations

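In the RV of Sham-F animals, Pfkfb1 was 8.96 to 10.3 FPKM in the 4 males and 3.53 to 6.34 in the 5 females, without overlap. In RV AOB-F it was 5.77 to 8.31 in 4 males and 3.94 to 4.97 in 3 females, and in LV Sham-F 3.54 to 5.99 and 3.5 to 5.00. The gene was picked for this after its values were seen, and sex was not tested on its own.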
